A study of Mus musculus with 8 samples.

Results

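The livers of 4 C57BL/6 mice that received normal saline into the portal vein for 2 weeks were taken as a baseline transcriptome. They are the 4 libraries whose labels give the treatment as normal saline, out of 8 in the study. The other 4 came from mice infused with 4-hydroxyphenylacetic acid (4-HPAA), a microbial product of dietary flavonoids, and are not compared with them here. Per the study's methods, C57BL/6J mice of 8 to 10 weeks of age were fed standard chow, received a portal catheter tied to an osmotic pump under the skin, and were housed singly after surgery. All 4 mice therefore carried the catheter, had undergone laparotomy and had been anesthetized with isoflurane at necropsy. Males and females were used in the study, and the labels give no sex for these libraries. Poly(A) RNA of a piece of liver was sequenced as paired-end reads, and the authors deposited the estimated count of each transcript. The livers are called 1 to 4 by the replicate number of their labels.

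The liver makes most of the proteins of blood plasma, converts ammonia to urea, stores and releases glucose, builds and burns fatty acids, makes bile acids and modifies drugs. Most of its RNA comes from hepatocytes, whose work differs between the portal and the central end of the lobule. Kupffer cells are the resident macrophages, stellate cells store vitamin A, and a fenestrated endothelium lines the sinusoids. In mice many hepatic genes also follow sex, feeding and time of day. In whole-liver RNA, fewer cells of a type and less RNA per cell cannot be told apart.

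The libraries held between 29559978 and 30673398 estimated counts. Between 0.703% and 1.06% of these lay on transcripts that the gene annotation did not hold, and all shares below are of the rest. The scale CPM (counts divided by the gene-assigned total and multiplied by 1000000) was used, so 1 CPM stood for about 29.3 to 30.5 counts in a library. The scale TPM divides by transcript length as well. The order of genes in CPM is an order by counts, to which long transcripts contribute more, and a gene that leads a class is the one with the most counts. Levels per length are given as TPM. A mean of 1 CPM was reached by 12083 of 35975 genes, which are called detected, and 14452 genes were at 0 in all 4 livers. Errors are standard deviations between the 4 livers, which cover biological and technical spread together.

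The 5 hepatocyte markers summed to 108386, 98155, 96284 and 116919 CPM in livers 1 to 4, of which Alb (albumin) made up most. The defining genes of the labelled tissue were thus all high in every library. The 7 sinusoidal endothelial markers summed to 137 to 205 CPM, the 7 Kupffer cell markers to 84.1 to 283 CPM and the 7 stellate cell markers to 115 to 217 CPM. All 21 of these genes were detected. Markers of lymphocytes and neutrophils were near absent. The 4 T cell genes summed to 1.69 to 3.17 CPM, the 3 B cell genes to 1.49 to 2.02 CPM, the 3 NK cell genes to 0.652 to 0.924 CPM and the 3 neutrophil genes to 0.591 to 1.30 CPM, with Ly6g at 0 in every liver. Of the 8 pancreatic acinar genes, Prss2, Amy2a1, Ctrb1 and Pnlip were at 0 in every liver, and Cela1 alone was detected (7.67 to 12.3 CPM). The adipocyte genes summed to 0.296 to 0.471 CPM. Of the 3 mesothelial genes Msln and Upk3b had means of 0.918 and 0.573 CPM, and Krt18 alone was detected. The list summed to 66.6 to 103 CPM, nearly all of it Krt18. Other lists were not low. The 5 erythroid genes, all detected, summed to 248 to 2550 CPM. The 5 cholangiocyte genes, of which 3 were detected, summed to 22.9 to 46.6 CPM. The 3 enterocyte genes, of which 2 were detected, summed to 153 to 540 CPM.

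The 4 Y-chromosome genes were present in all 4 livers. Ddx3y was measured at 81.4, 71.8, 87.2 and 76.0 CPM in livers 1 to 4, and Eif2s3y at 53.3, 44.9, 52.0 and 44.6 CPM. No liver stood apart for either gene. Mup20, which encodes the male pheromone darcin, lay between 3712 and 5386 CPM.

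Albumin was the most abundant gene on both scales. Alb was measured at 87275, 80890, 81500 and 98707 CPM in livers 1 to 4 (mean 87093 ± 8260, SD, n = 4). It alone took 8.09% to 9.87% of a library. Next in CPM stood mt-Co1, a subunit of cytochrome oxidase encoded in mitochondrial DNA, at 18787, 19593, 22139 and 19726 CPM. Trf (transferrin, the plasma iron carrier) followed at 12649, 15418, 11931 and 14909 CPM. The other genes among the first 10 were Mup22 and Mup7, which encode major urinary proteins, Apoe and Apoa1, which encode apolipoproteins, the protease inhibitor gene Serpina3k, and the mitochondrial genes mt-Cytb and mt-Co3. These 10 genes held 18.9 ± 0.767% of the counts.

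Apoe was even between the livers, at 10963, 11767, 10471 and 12062 CPM. Apoa1, the main protein of high-density lipoprotein, was not, at 11320, 8863, 6133 and 9305 CPM, with liver 3 lowest. On the TPM scale Alb stood at 70147 ± 7170, Mup22 at 24877, mt-Co1 at 21256 and Apoe at 20837. Short transcripts gained by this scale. Fabp1, the hepatic fatty acid binding protein, had a mean of 3572 CPM and 10579 TPM, and Apoa2, an apolipoprotein of a short transcript, 3464 CPM and 11264 TPM.

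A few genes carried much of each library. The 100 most abundant genes of a liver held 46.3% to 48.4% of its counts, and the first 1000 held 74.3% to 75.7%. It took 115 to 136 genes to reach 50% of the counts and 3309 to 3460 to reach 90%. Over the means, 122 genes at or above 1000 CPM held 49.8% of the counts, and 7383 genes at or above 10 CPM held 97.8%. Protein-coding genes held 98.9% of all counts.

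Genes were sorted into 36 functional classes by their known roles, which together took in all but 27.1 ± 0.622% of the counts. The 7 classes of secreted plasma and urinary proteins formed the largest block. They held 31.8%, 34.4%, 33.9% and 33.6% of the counts in livers 1 to 4 (33.4 ± 1.11%, n = 4), and 37.0% per length. The 11 classes of metabolic enzymes held 19.2 ± 0.746%. Of these 11, the 3 drug-handling classes (P450 genes, conjugating enzymes, and esterases and oxidoreductases) held 6.91 ± 0.232%. Genes of oxidative phosphorylation, nuclear and mitochondrial, held 7.76 ± 0.370%. Ribosomal proteins and translation factors held 2.36 ± 0.253%.

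**Figure D1:**
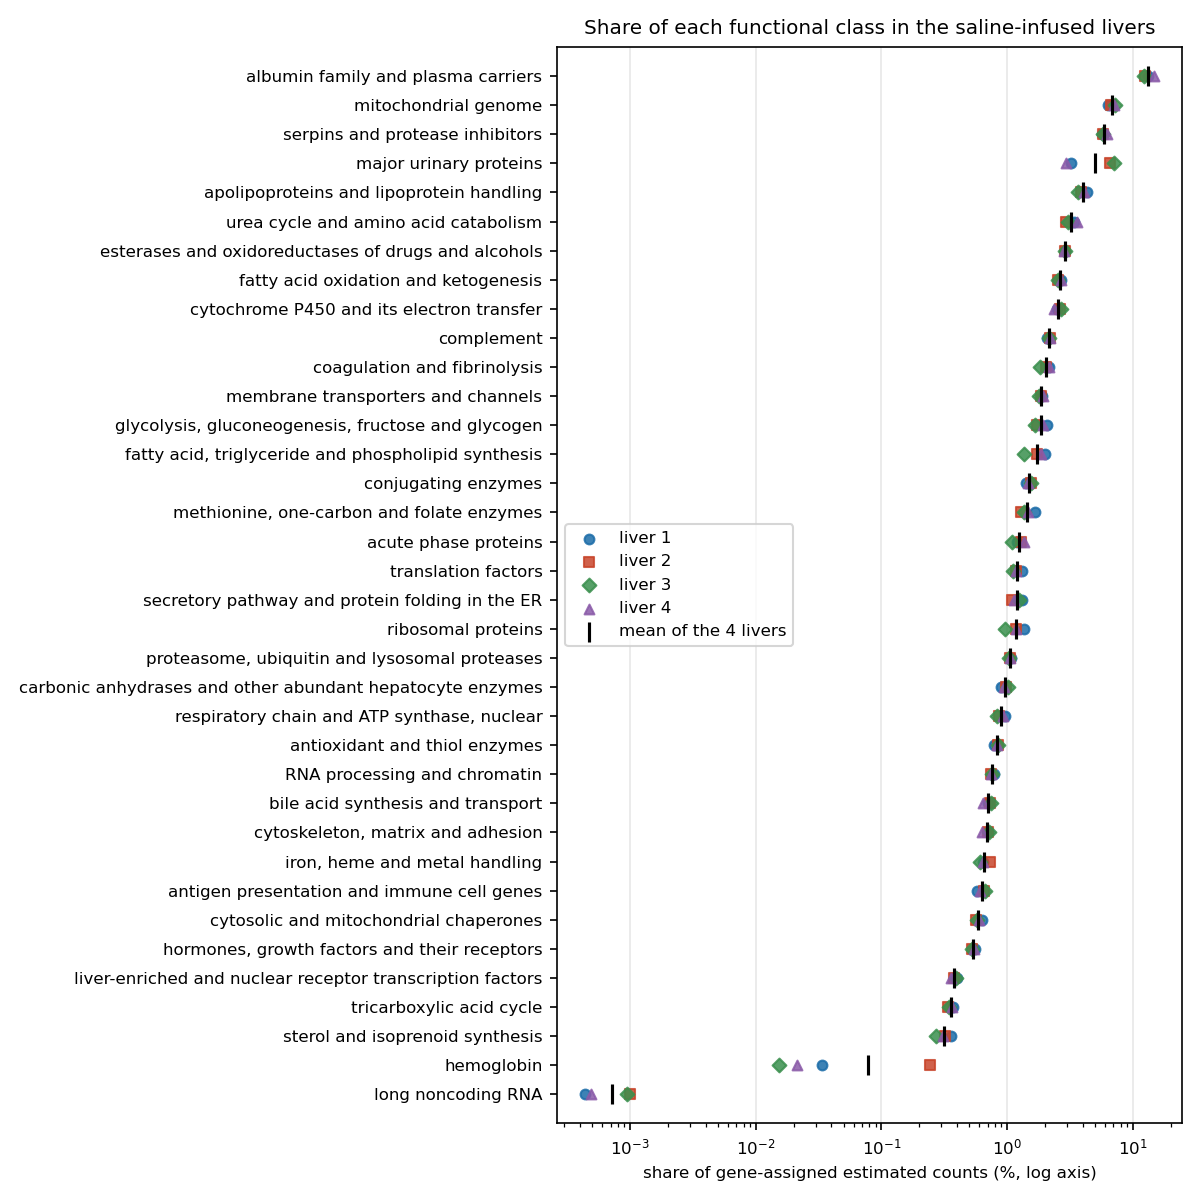
Share of the gene-assigned estimated counts (%, log axis) in each of the 36 functional classes, with 1 point per saline-infused liver and a bar for the mean of the 4. Most classes show overlapping points, while the major urinary proteins split into livers 2 and 3 (6.56% and 7.12%) against livers 1 and 4 (3.20% and 2.96%), and hemoglobin stands far higher in liver 2 (0.243%).

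Among the secreted proteins, the albumin family and other plasma carriers held 13.2 ± 1.06% of the counts, and Alb made up 66.1% of this class. Ahsg (fetuin A, an inhibitor of mineral deposition) was measured at 7228, 6732, 6371 and 7874 CPM. Selenop, the selenium carrier of plasma, lay between 5581 and 6397 CPM, Gc, the vitamin D binding protein, between 5102 and 5623 CPM, and Ttr, which carries thyroxine, between 3596 and 4263 CPM. The carriers named here, Trf included, thus differed less than 2-fold between livers. Of the 17 detected genes of the class 1 reached 2-fold (5.88%, against 9.09% of all detected genes).

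Serpins and other protease inhibitors held 5.87 ± 0.250%. Serpina3k was measured at 10314, 9377, 10393 and 9698 CPM and Pzp, a broad protease trap, at 6112, 6937, 6305 and 6882 CPM. Both were close in all 4 livers. The genes of α1-antitrypsin were less even. Serpina1e stood at 3754, 9117, 7294 and 10828 CPM, a 2-fold or larger gap between liver 1 and liver 4, while its neighbour Serpina1c ran the other way with 7367, 6374, 7344 and 6137 CPM. These genes are near copies. Of the 31-base words of the dominant transcript of Serpina1e, 56.4% also occur in another gene, and for Serpina1c 82.2%, so reads can be shared out between them and the single-gene values are uncertain.

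Apolipoproteins and lipoprotein enzymes held 3.98 ± 0.291%, led by Apoe, Apoa1 and Apob. Apob, the core protein of very-low-density lipoprotein, was measured at 5422, 4429, 7140 and 4705 CPM, with liver 3 highest. Complement held 2.16 ± 0.0506%, the smallest SD of the secreted classes. Its leading gene C3, on which all complement pathways converge, was measured at 7354, 7042, 7232 and 7164 CPM, a coefficient of variation (CV) of 1.81%. Coagulation genes held 2.05 ± 0.152%, with the 3 fibrinogen chains Fgb, Fga and Fgg at means of 3433, 3398 and 2470 CPM. All 3 were lowest in liver 3. Acute phase proteins held 1.23 ± 0.115%, led by the heme scavenger Hpx (5138 ± 859 CPM) and the hemoglobin scavenger Hp (2999 ± 311 CPM).

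Among the enzymes, genes of the urea cycle and amino acid breakdown held 3.24 ± 0.311%. Cps1, which starts the urea cycle, was measured at 4828, 3882, 4428 and 4319 CPM. Ass1, a later step, was measured at 2739, 2447, 2394 and 3970 CPM, with liver 4 highest. Tat, which breaks down tyrosine, stood at 3545, 1943, 2195 and 3074 CPM. In this class 48 of 71 detected genes were highest in liver 4, whereas 19.1% of all detected genes were. The methionine and one-carbon class held 1.45 ± 0.163%, and Mat1a, which makes S-adenosylmethionine, was measured at 5303, 3451, 3730 and 4142 CPM.

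Fatty acid oxidation and ketogenesis held 2.62 ± 0.0814%. Scp2, a peroxisomal thiolase and lipid carrier, had a mean of 3569 ± 179 CPM. The synthesis of fatty acids, triglycerides and phospholipids was less even, at 2.02%, 1.72%, 1.36% and 1.87% in livers 1 to 4. Scd1, the desaturase that makes oleate, supplied 39.3% of this class and was measured at 8324, 6869, 4530 and 7635 CPM. Sugar metabolism held 1.85 ± 0.200%. Pck1, the gluconeogenic enzyme, led it with 5378, 3992, 4213 and 5029 CPM, and was higher in livers 1 and 4 than in livers 2 and 3.

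Cytochrome P450 genes held 2.54 ± 0.155%. Cyp2e1, which oxidizes ethanol and small solvents, was measured at 7025, 6978, 6987 and 4329 CPM. Livers 1 to 3 were close and liver 4 was apart from them. Cyp3a11, the main drug-metabolizing enzyme of its subfamily, ran from 2796 CPM in liver 1 to 3829 CPM in liver 4. The class of esterases and oxidoreductases held 2.87 ± 0.0382%, led by Ces1c (2676 ± 183 CPM) and urate oxidase Uox (2254 ± 504 CPM). Conjugating enzymes held 1.496 ± 0.0662%, led by the glutathione transferase Mgst1 (2126 ± 174 CPM).

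The major urinary proteins (Mup), small secreted carriers of pheromones that mice excrete in urine, held 3.20%, 6.56%, 7.12% and 2.96% of the counts in livers 1 to 4 (4.96 ± 2.19%, n = 4). Livers 2 and 3 were above livers 1 and 4 by more than any spread within those pairs. No other class among the 10 largest varied as much. The 24 detected genes of the class all lie on chromosome 4. Sequences of the 50 bases upstream of the start are given for 7 of them to show where these family members are alike and where they differ, with albumin, the most abundant gene, and with the globin genes, which stood apart in 1 liver. They are from RefSeq (GRCm38.p6), are written 5′ to 3′ on the strand of the gene, and capitals mark the motif ATATAA, which is like the core promoter box that sets the start of many abundant genes.
Alb: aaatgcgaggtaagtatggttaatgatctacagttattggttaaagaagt
Mup19: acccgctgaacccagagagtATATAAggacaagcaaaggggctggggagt
Mup9: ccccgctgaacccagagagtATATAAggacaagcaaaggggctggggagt
Mup17: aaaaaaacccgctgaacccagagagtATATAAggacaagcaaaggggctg
Mup15: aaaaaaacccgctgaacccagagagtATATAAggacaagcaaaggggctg
Mup2: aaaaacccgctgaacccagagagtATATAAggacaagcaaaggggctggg
Mup18: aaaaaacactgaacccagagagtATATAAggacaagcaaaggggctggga
Mup10: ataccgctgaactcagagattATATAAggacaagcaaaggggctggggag
Hba-a1: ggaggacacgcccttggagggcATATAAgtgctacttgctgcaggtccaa
Hba-a2: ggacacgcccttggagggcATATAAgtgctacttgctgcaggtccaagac
Hbb-bs: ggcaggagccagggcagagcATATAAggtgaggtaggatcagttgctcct
Hbb-bt: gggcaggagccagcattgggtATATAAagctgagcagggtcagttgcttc

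The Alb sequence is chr5:90460820-90460869 on the plus strand. The Mup sequences are on the minus strand at chr4:61782225-61782274 (Mup19), chr4:60421953-60422002 (Mup9), chr4:61595833-61595882 (Mup17), chr4:61439705-61439754 (Mup15), chr4:60139857-60139906 (Mup2), chr4:61674095-61674144 (Mup18) and chr4:60582156-60582205 (Mup10). The α-globin sequences are on the plus strand at chr11:32283622-32283671 (Hba-a1) and chr11:32296442-32296491 (Hba-a2), and the β-globin sequences on the minus strand at chr7:103827929-103827978 (Hbb-bs) and chr7:103813924-103813973 (Hbb-bt). The motif starts 24 to 31 bases before the RefSeq start in the 11 sequences that hold it. In the same 50 bases on the strand of the gene it occurs in 544 of 32851 promoters of the table (1.66%), and on either strand in 2.30%. Of the 24 detected Mup genes 13 had a promoter in the table, and 9 of these held it. The 7 Mup windows shown are all among those 9, so no Mup window without the motif is shown. The windows of Mup17 and Mup15 are the same, and that of Mup19 differs from that of Mup9 by 1 base. The other pairs of the 7 Mup windows lie 4 to 13 single-base edits apart, insertions and deletions included. These distances compare windows cut at each RefSeq start, so a start that is shifted counts as edits. Mup19 and Mup17 are 12 edits apart, with the motif 30 and 24 bases before the start. Aligned at the motif, the bases that both of these windows show are the same.

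The members did not all share the pattern of the family sum. Mup22 was measured at 9753, 14809, 17259 and 10604 CPM in livers 1 to 4, and Mup7 at 1249, 16255, 14750 and 1891 CPM. Mup7 was thus several-fold higher in livers 2 and 3 than in livers 1 and 4. Mup11 was measured at 2212, 7634, 6951 and 2148 CPM. Mup17 stood at 191, 707, 1084 and 66.6 CPM, Mup1 at 72.0, 656, 733 and 80.5 CPM, and Mup12 at 13.6, 139, 162 and 11.9 CPM. In Mup19 liver 4 was lowest by itself, at 4469, 7096, 8238 and 1387 CPM. By contrast Mup10 (152, 172, 206 and 180 CPM), Mup18 (3808, 3431, 4802 and 3231 CPM) and Mup20 (3712, 4403, 5386 and 4868 CPM) varied little.

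In 21 of the 24 detected Mup genes both livers 2 and 3 were above both livers 1 and 4, a pattern found in 19.2% of all detected genes. Of the 24, 17 differed 2-fold between the highest and the lowest liver (70.8%, against 9.09% of all detected genes). Without Mup7 the family held 3.07%, 4.93%, 5.65% and 2.77% of the counts, the same order. The 24 include the annotated pseudogenes Mup-ps16, Mup-ps19, Mup-ps13 and Mup-ps14. Members of the family can share reads, so these counts are not of separate observations. Single-gene values are uncertain in this family. Of the 31-base words of the dominant transcript, 100% of those of Mup22 and Mup19 and 98.6% of those of Mup7 occur in another gene as well, against 32.7% for Mup3. The median over the 24 genes was 93.0%.

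**Figure D2:**
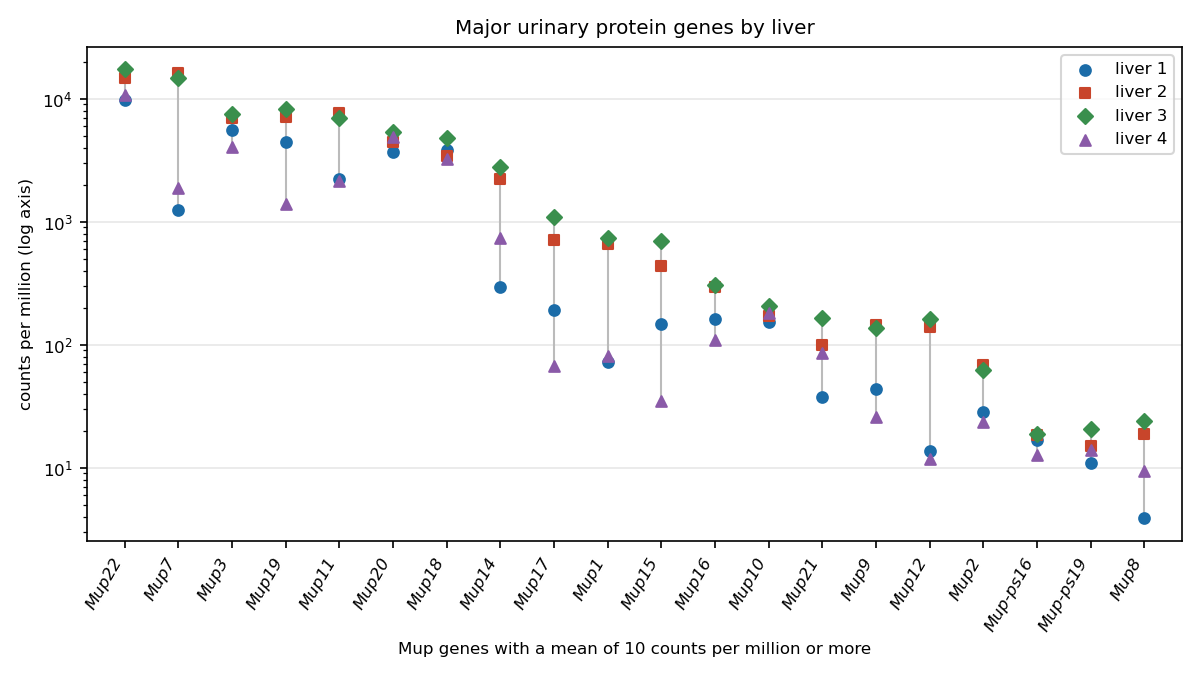
CPM (log axis) of each major urinary protein gene with a mean of 10 CPM or more, with 1 point per liver and a line from the lowest to the highest. Livers 2 and 3 lie above livers 1 and 4 for most genes, several-fold for Mup7, Mup12 and Mup1, while Mup20, Mup18 and Mup10 are close in all 4 livers.

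Transcripts of the mitochondrial genome held 6.36%, 6.72%, 7.26% and 7.12% of the counts (6.86 ± 0.408%), and 11.8% per length. All 13 protein genes were detected and none differed 2-fold between livers. After mt-Co1 the most counts fell on mt-Cytb (8077 ± 502 CPM), mt-Co3 (7812 ± 365 CPM), mt-Nd4 (6268 ± 483 CPM) and mt-Atp6 (6064 ± 283 CPM), which are parts of complexes III, IV, I and of the ATP synthase. Per length the order was another, with mt-Co3 at 16314 TPM, mt-Atp6 at 14580 TPM, mt-Cytb at 11557 TPM and mt-Nd4 at 7445 TPM. The least even was mt-Co2, at 1506, 2059, 2036 and 2623 CPM. Its values were mirrored by the gene model Gm28661, an annotated nuclear pseudogene on chromosome 1, at 3958, 3507, 3691 and 3504 CPM. All 31-base words of the Gm28661 transcript occur in mt-Co2, and the sum of both was 5464, 5566, 5728 and 6127 CPM, closer than mt-Co2 alone. Gm29216, Gm28437 and Gm10925 shared 97.2%, 100% and 100% of their words with mt-Co1, mt-Co3 and mt-Atp6. Counted together with these 4 models, the mitochondrial genome held 7.44 ± 0.400%.

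Most genes were counted on 1 main transcript. Of the detected genes 10892 had at least 2 transcripts in the table (median of 5 over detected genes), and the transcript with the most counts held a median of 80.9% of the gene's counts. It held over 50% in 84.9% of these genes and over 90% in 36.3%. The share went from 98.1% in genes with 2 transcripts to 60.3% in genes with at least 9. Alb-201, C3-201 and Scd1-201 each held nearly the whole count of their gene in every liver. Apoa1-201 held 99.2%, Selenop-203 98.1% and Cyp2e1-201 98.0%. Trf was divided. Trf-201 held 67.1%, 64.4%, 58.0% and 73.1% in livers 1 to 4, and Trf-203 a mean of 30.3%.

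The dominant transcript was not the same in all 4 livers for 1618 of the 10892 genes (14.9%). At 100 CPM or more this held for 52 of 1115 genes (4.66%). Most of the abundant genes among them were near ties. Apoe-209 and the noncoding Apoe-202 held means of 47.9% and 47.7%, and Apoa2-204 and Apoa2-201 held 49.2% and 48.5%. Apob was the exception. Apob-202 held 76.4%, 25.9%, 84.0% and 73.4% of the Apob counts in livers 1 to 4, and Apob-201 held 2.08%, 43.2%, 1.42% and 0.494%. Liver 2 thus differed from the rest, and both are long coding transcripts, of 13934 and 13369 bases. In Fn1, the gene of plasma fibronectin, Fn1-217 held 32.2%, 32.9%, 33.1% and 21.9%, and the retained-intron transcript Fn1-202 held 20.6%, 18.2%, 16.1% and 34.2%, with liver 4 apart.

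Some coding genes were dominated by a transcript that is not annotated as coding. This held for 673 of 10798 protein-coding genes with at least 2 transcripts (6.23%). Alas1, the first enzyme of heme synthesis, had 56.0% on Alas1-206, a processed transcript. Lars2, the mitochondrial leucyl-tRNA synthetase, had 95.9% on Lars2-209, annotated for nonsense-mediated decay, and Rpsa, a ribosomal protein gene, had 63.1% on Rpsa-206. Rsrp1 had 89.97% on Rsrp1-204, a retained intron. These are shares as kallisto divided the reads, and no junction reads were seen here.

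The 4 livers were close for most genes. The median CV over the 12083 detected genes was 10.98%, with 44.4% of the genes under 10% and 97.4% under 50%. Pairs of livers were compared after adding 1 to each CPM. On that scale the median gene differed 1.10-fold to 1.13-fold, and 114 (livers 2 and 3) to 237 genes (livers 2 and 4) differed 2-fold. The added 1 lowers the differences of genes near 1 CPM, and the other 2-fold counts given here were made without it. The spread fell with the level up to about 30 CPM. The median CV was 22.9% from 1 to 3 CPM, 13.3% from 3 to 10 CPM, 9.01% from 10 to 30 CPM and 8.32% from 30 to 100 CPM, and was 11.1% from 300 to 1000 CPM. Counting error alone would give 13.8% in the lowest of these level classes and 0.387% above 1000 CPM, where the median CV was 9.62%. Above 1000 CPM the spread was thus many times the counting error.

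**Figure D3:**
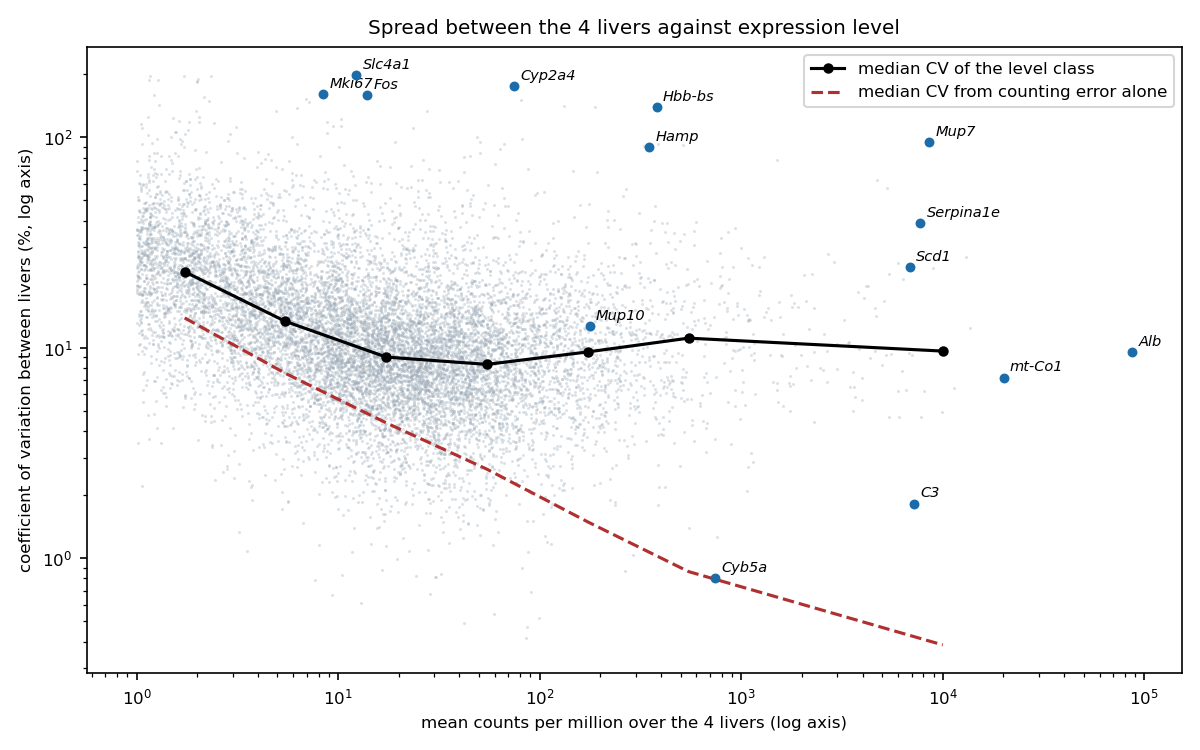
Coefficient of variation between the 4 livers (%, log axis) against the mean CPM (log axis), 1 point per detected gene, with the median of each level class (black line) and the CV that counting error alone would give (dashed line). The black line levels off near 10% while the dashed line keeps falling, C3 lies far under it at 1.81%, and Slc4a1, Cyp2a4, Hbb-bs and Mup7 lie far above it.

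The 10 genes with the smallest CVs among the 1250 at or above 100 CPM had CVs of 0.804% to 1.76%. Counting error alone would give a median of 1.49% from 100 to 300 CPM and 0.863% from 300 to 1000 CPM. Values this low are thus near the counting error, and their order over 4 livers is uncertain. Cyb5a, cytochrome b5, was measured at 745, 751, 747 and 737 CPM. Next came Eif4ebp2, a repressor of cap-dependent translation (264 to 268 CPM), and Aplp2, a relative of the amyloid precursor protein (286 to 292 CPM). The splicing factor Srsf6, the selenophosphate synthetase Sephs2 and the peroxisome assembly factor Pex19 were also among these 10. Actb and Gapdh, in common use as references, had CVs of 9.81% and 8.91%. Classes with low median CVs were the tricarboxylic acid cycle (5.69%) and the mitochondrial genome (6.28%), and no gene of either differed 2-fold.

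Of the detected genes 1098 (9.09%) differed at least 2-fold between the highest and the lowest liver, and at or above 10 CPM 259 of 7383 (3.51%) did. Without liver 4 the count was 725, a range over 3 livers in place of 4. Among classes of at least 20 detected genes, the share was highest, after the Mup genes, in genes of antigen presentation and immune cells (35 of 79, 44.3%), acute phase proteins (7 of 20, 35%), P450 genes (23 of 67, 34.3%) and complement (8 of 32, 25.0%). It was 0 in ribosomal proteins (84 genes). For 675 genes (5.59%) 1 liver stood apart from the other 3 by Dixon's gap test at the 95% level, which marks about 1 gene in 20 by chance. These were 200 genes for liver 1, 139 for liver 2, 163 for liver 3 and 173 for liver 4. Of the 259 genes, livers 2 and 3 were the upper pair in 85 and livers 1 and 4 in 58, while the other 4 pairings took 22 to 37 each. Over all detected genes these 2 pairs were above the other livers in 19.2% and 17.1%. The 85 hold many Mup genes, near copies that share reads and are not separate observations.

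Ribosomal protein genes moved together. Their median CV was 14.7%, against 10.98% over all detected genes, and none differed 2-fold. Their sum was 1.37%, 1.17%, 0.959% and 1.17% of the counts in livers 1 to 4. Of the 84 detected genes 82 were highest in liver 1 and 80 were lowest in liver 3, against 32.3% and 24.2% of all detected genes. Rps2 was measured at 445, 402, 337 and 393 CPM, and Rpl13a at 320, 276, 195 and 261 CPM. Nuclear genes of the respiratory chain and ATP synthase were alike. Of 92, 57 were highest in liver 1 and 65 lowest in liver 3, among them Cox4i1, a subunit of cytochrome oxidase, at 293, 268, 231 and 282 CPM.

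Transcript length moved with these values. Among genes whose dominant transcript was under 500 bases, the median gene stood at 109% of its own mean in liver 1, 98.0% in liver 2, 88.0% in liver 3 and 103% in liver 4. Among genes of 4000 bases or more the values were 103%, 97.5%, 106% and 92.9%. Liver 3 therefore held less of short and more of long transcripts, and liver 4 less of long ones. Of the 601 genes outside any class under 1000 bases 52.9% were lowest in liver 3, against 97.0% of the 67 ribosomal protein genes and 78.7% of the 61 respiratory chain genes of that length. The part of length in the class values was not tested. Long genes such as Apob, highest in liver 3, and short ones such as Apoa1, lowest there, are to be read beside this trend.

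**Figure D4:**
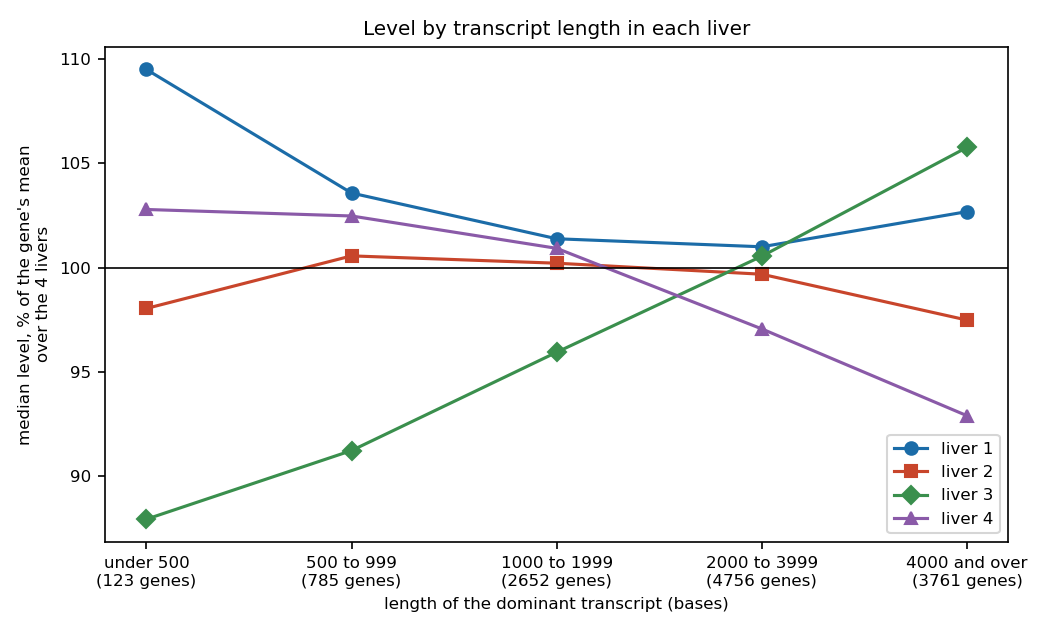
Median level of genes in each liver, as % of the gene's mean over the 4 livers, by the length of the dominant transcript in bases (number of genes under each length class). Liver 3 climbs from 88.0% for the shortest to 106% for the longest transcripts, liver 4 goes from 103% down to 92.9%, and livers 1 and 2 are flatter beyond 1000 bases.

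Liver 2 stood apart by blood and cell-cycle genes. Hbb-bs, the main adult β-globin, was measured at 178, 1172, 72.0 and 99.7 CPM in livers 1 to 4. Hba-a2 was measured at 80.2, 583, 38.7 and 55.5 CPM, Hba-a1 at 51.7, 410, 25.98 and 40.1 CPM and Hbb-bt at 28.7, 263, 15.1 and 18.1 CPM. All 4 globin genes were thus several-fold higher in liver 2 than in any other liver. Slc4a1, the anion exchanger of the red cell membrane, went from at most 0.492 CPM in the other 3 to 48.6 CPM in liver 2. Alas2, the erythroid enzyme of heme synthesis, was also highest there but by less, at 46.4, 123, 96.5 and 88.7 CPM.

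The Kupffer cell markers were high in livers 2 and 3. In all 7 both of these livers were above livers 1 and 4, against 19.2% of all detected genes. All 7 were highest in liver 2, 6 of 7 were lowest in liver 4, and all 7 differed 2-fold (20.6% of all detected genes were highest in liver 2 and 34.4% lowest in liver 4). Clec4f, a lectin of Kupffer cells, was measured at 35.7, 82.2, 60.02 and 30.9 CPM and Cd5l, a macrophage-secreted protein, at 34.2, 97.9, 64.9 and 25.6 CPM. In Marco, a scavenger receptor, liver 2 was apart from the other 3. It was measured at 2.89, 27.6, 6.70 and 4.10 CPM. Of the 7 detected proliferation genes 6 were highest in liver 2. Mki67, which marks cycling cells, stood at 1.12, 28.6, 1.62 and 2.42 CPM and Top2a, the topoisomerase of dividing cells, at 1.06, 6.88, 1.46 and 1.91 CPM. Which cells carried these transcripts was not tested.

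Liver 1 was highest in immediate early genes, which switch on within minutes of many stimuli. Of the 11 detected, 10 were highest in liver 1 (32.3% of all detected genes). In 6 of the 11 both livers 1 and 4 were above livers 2 and 3 (17.1% of all detected genes). Fos was measured at 46.7, 0.888, 0.957 and 7.23 CPM, Egr1 at 144, 27.8, 24.2 and 58.8 CPM, and Jun at 114, 33.6, 22.3 and 33.0 CPM. Dusp1, a phosphatase that ends MAP kinase signals, stood at 118, 48.6, 52.3 and 59.4 CPM. Myc was the exception, highest in liver 4 (13.5 CPM). Cdkn1a, the cell-cycle inhibitor p21, was also highest in liver 1, at 29.1, 2.76, 3.56 and 5.81 CPM.

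All 12 genes known to rise with fasting were highest in liver 1, against 32.3% of all detected genes, and in 8 of them both livers 1 and 4 were above livers 2 and 3 (17.1%). For most the margin was small. Ppargc1a was measured at 25.2, 23.4, 22.2 and 24.4 CPM and Cpt1a, the gate of mitochondrial fatty acid uptake, at 731, 626, 632 and 697 CPM. Igfbp1, an insulin-repressed gene, was measured at 387, 123, 96.2 and 166 CPM, Cyp4a14, a PPARα target, at 941, 456, 458 and 521 CPM, and Pdk4, the brake on pyruvate dehydrogenase, at 10.2, 2.24, 3.52 and 3.86 CPM. Of the 12, 4 differed 2-fold, against 9.09% of all detected genes. The list of genes known to rise with feeding was also highest in liver 1. It summed to 10076, 8546, 5701 and 9198 CPM in livers 1 to 4, most of it Scd1. Of its 9 detected genes 5 were highest in liver 1 and 4 in liver 4 (32.3% and 19.1% of all detected genes). Lowest in liver 3 were 7 of the 9 (24.2% of all detected genes). Fasn, the fatty acid synthase, stood at 314, 337, 180 and 364 CPM and Acly, which supplies its acetyl-CoA, at 259, 212, 157 and 239 CPM. Lepr, the leptin receptor, was higher in livers 1 and 4, at 114, 12.1, 15.03 and 61.4 CPM.

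Liver 4 differed along the axis of the lobule. The pericentral list summed to 10816, 11422, 11325 and 7125 CPM, and 10 of its 12 genes were lowest in liver 4, against 34.4% of all detected genes. Glul, the glutamine synthetase of the cells next to the central vein, was measured at 989, 931, 842 and 407 CPM. Cyp1a2 stood at 321, 598, 539 and 250 CPM and Slco1b2, a bile acid and drug importer, at 900, 989, 1143 and 617 CPM. Of the 12 periportal genes 9 were highest in liver 4 (19.1% of all detected genes), among them Gls2, the liver glutaminase (286, 289, 298 and 548 CPM), Cdh1, which encodes E-cadherin (31.04, 30.4, 30.3 and 47.8 CPM), and Ass1. Cyp2f2, a further one of the 9, was at 850, 1070, 1130 and 1204 CPM, so liver 4 was not apart in it. The remaining 3 periportal genes, Cps1 and Pck1 among them, were highest in liver 1 (32.3% of all detected genes). Which part of the liver was sampled is not given in the sources used here.

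Further genes were high in liver 4. Cyp2a4, a steroid hydroxylase that is higher in female liver, was measured at 28.9, 0.813, 0.547 and 269 CPM, the widest range among the P450 genes named here. It shares 58.1% of its words with other genes, mostly with Cyp2a5, which was at 731, 1010, 1057 and 1024 CPM. Tff3, a mucosal repair peptide, was measured at 16.4, 7.93, 4.03 and 81.9 CPM. Hamp, which encodes the iron hormone hepcidin, was measured at 686, 17.6, 156 and 542 CPM and Hamp2 at 51.0, 9.02, 9.65 and 35.4 CPM. Both were higher in livers 1 and 4 than in livers 2 and 3.

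Genes of class II antigen presentation were highest in liver 3. H2-Aa, a class II histocompatibility chain, was measured at 16.4, 9.09, 29.6 and 9.39 CPM, H2-Ab1 at 14.97, 7.82, 26.9 and 8.58 CPM and H2-Eb1 at 12.2, 6.52, 22.1 and 7.47 CPM. Cd74, the invariant chain of the same complex, was measured at 36.0, 21.8, 68.0 and 23.6 CPM. Of the 79 detected genes of the immune class 43 were highest in liver 3 and 43 were lowest in liver 4 (28.0% and 34.4% of all detected genes). In 43 both livers 2 and 3 were above the others (19.2%). Gvin1, an interferon-induced GTPase, was measured at 25.9, 19.6, 122 and 28.4 CPM, and nearly all of its words are shared with the gene model Gm4070. Of the 16 interferon response genes 7 were highest in liver 2, 6 in liver 3 and 3 in liver 4, and 10 were lowest in liver 1 (19.7% of all detected genes). In 10 both livers 2 and 3 were above the others. Irf7, a transcription factor of the interferon response, stood at 25.6, 40.7, 34.9 and 21.7 CPM.

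Genes known to differ between the sexes varied among these livers, which all carried Y-chromosome transcripts. Of the 11 male-biased genes 7 were lowest in liver 1 and 4 in liver 4 (19.7% and 34.4% of all detected genes), and in 7 both livers 2 and 3 were above both others (19.2%). Cyp7b1, an oxysterol hydroxylase, was measured at 68.8, 202, 238 and 128 CPM, Hsd3b5, a steroid dehydrogenase, at 52.4, 143, 133 and 49.9 CPM, and Cyp4a12a at 67.7, 205, 186 and 131 CPM. Of 16 female-biased genes 9 were under 1 CPM. Of the 7 detected ones 5 were highest in liver 1 and 2 in liver 4 (32.3% and 19.1% of all detected genes). Fmo2, a flavin monooxygenase, stood at 127, 44.5, 39.0 and 30.6 CPM, Cux2, a female-biased repressor, at 14.4, 2.04, 2.44 and 6.01 CPM, and Acot3 at 71.1, 19.7, 21.2 and 45.0 CPM. Onecut1, a liver transcription factor, ran like the male-biased genes, at 16.6, 136, 101 and 12.6 CPM. Cyp2b13 and Sult2a1, which mark female liver, were at 0 in at least 2 livers and at or under 0.0342 CPM in the rest.

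The sum of the day-phase genes of the clock was close in the 4 livers. The 10 genes summed to 689, 702, 651 and 679 CPM, and of these Bhlhe41, with a mean of 1.31 CPM, differed 2-fold. Taken singly the 10 genes were not more even than others, with a median CV of 14.5% against 10.98% over all detected genes. Tef, an output factor of the clock, was measured at 223, 230, 220 and 222 CPM, Nr1d2 at 100.2, 101, 106 and 98.9 CPM, and Per2, a clock repressor, at 45.5, 41.2, 46.9 and 45.0 CPM. The night-phase genes were less even. All 4 detected ones were lowest in liver 2 (21.7% of all detected genes), among them Arntl, the clock activator, at 3.35, 0.615, 2.77 and 1.21 CPM. The time of necropsy is not given in the sources used here.

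Lists of injury and stress responses had mostly even sums. Acute phase genes summed to 14016, 14764, 12880 and 15730 CPM, a sum that Hpx and Hp dominate, while 7 of the 20 genes of the acute phase class differed 2-fold, among them Hamp. Saa1, which rises steeply in systemic inflammation, lay between 36.7 and 46.1 CPM. Lcn2, a further inflammation marker, was at 18.1, 5.19, 4.45 and 4.88 CPM. The 14 genes of collagens and fibrosis summed to 1396 to 1869 CPM, nearly all of it Fn1 (mean 1607 CPM), while Col1a1 had a mean of 2.65 CPM and Timp1 and Lox were under 1 CPM. Heat shock genes summed to 1511 to 1757 CPM, and none differed 2-fold. Retinoic acid response genes summed to 132 to 156 CPM, within which Cyp26a1, which degrades retinoic acid, was at 24.3, 3.14, 3.10 and 4.51 CPM. Lipid droplet genes summed to 559 to 681 CPM, led by Plin2 (253 to 327 CPM).

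**Figure D5:**
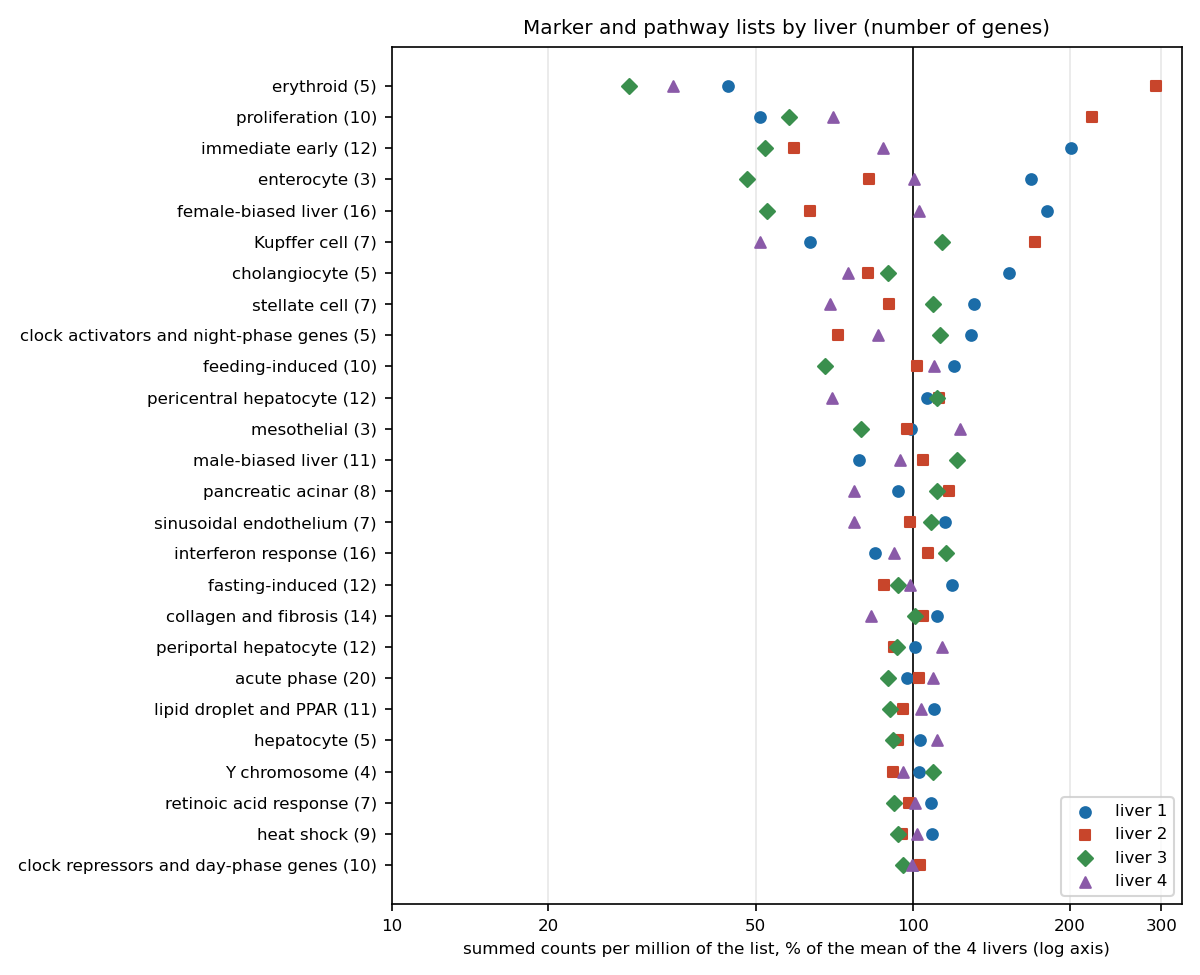
Summed CPM of each marker or pathway list in each liver, as % of the mean of the 4 livers (log axis), for lists with a mean of 10 CPM or more. Erythroid, Kupffer cell and proliferation genes are highest in liver 2, immediate early and female-biased genes in liver 1, pericentral genes are lowest in liver 4, and heat shock and day-phase clock genes lie close to the mean in all 4 livers.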

How the data were processed

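Liver RNA of the 4 saline-infused mice was analysed. The authors ran FastQC 0.11.9 and kallisto, and deposited estimated counts per transcript, not normalized and not pooled. The paper names NCBI annotations while the transcripts carry Ensembl identifiers. Transcripts were matched to genes of the GRCm38 GENCODE annotation, which held 116728 of 119414, summed per gene and scaled to CPM. TPM were computed from annotated transcript lengths. No column was left without a sample.

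Because there was 1 group, no test between groups was run. The members and lists were chosen with earlier results of these data known, and some class assignments were corrected after values were seen (among them Khk and Gckr to sugar metabolism and Gnmt to the methionine class). The genes named are the most abundant overall and per class or list, the most and least variable, and the most abundant with divided dominant transcripts. Some genes that this rule names are not reported here. Other genes named from the lists, Gm28661, Lepr, Onecut1, Hamp2, the class II genes and Mup genes outside the leading ones were picked after their values were seen.

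Spread is SD or CV between livers. Shared 31-base words were counted over the deposited transcripts that the annotation held, not over all transcripts of the annotation. Estimated counts rest on about 30 counts per CPM, so genes near 1 CPM are imprecise. Steps were tested on simulated data. Python 3.11.15, R 4.3.3 and edgeR 4.0.16 were used. Alternatives were other minimums, TMM, scaling per length and leaving out each liver.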

Additional observations from a re-analysis of the deposited data

Results flagged for a closer look

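Of 280 values of libraries, classes, lists and named genes, 30 had 1 liver apart from the other 3 by Dixon's gap test, whose 95% level marks about 1 in 20 groups by chance. Of the 201 genes looked at 24 were among them, 8 through liver 1, 9 through liver 2, 2 through liver 3 and 5 through liver 4. Many of the genes were themselves chosen for a large spread, so this count is a description.

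Liver 2 was apart in the hemoglobin class, with 0.243% of the counts against 0.0152% to 0.0339%, and in the erythroid list, with 2550 CPM against 248 to 385 CPM. The genes were Hbb-bs (1172 CPM), Hba-a2 (583 CPM), Hba-a1 (410 CPM), Hbb-bt (263 CPM) and Slc4a1 (48.6 CPM). The proliferation list was apart in the same liver, with 63.5 CPM against 14.7 to 20.2 CPM, through Mki67 (28.6 CPM) and Top2a (6.88 CPM). Marco stood at 27.6 CPM there. Srsf5, a splicing factor, was at 305 CPM in liver 2 and at 281 to 284 CPM in the others.

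Liver 1 was apart in Fos (46.7 CPM), Jun (114 CPM), Dusp1 (118 CPM against 48.6 to 59.4), Cdkn1a (29.1 CPM) and Fmo2 (127 CPM). Phf11c stood at 62.7 CPM against 10.1 to 11.2 CPM, and Fabp2, a fatty acid binding protein, at 67.8 CPM against 44.7 to 47.4 CPM. Cyp4a12b, a male-biased P450, was low in liver 1, at 17.3 CPM against 72.6 to 75.3 CPM, and shares 62.9% of its words with Cyp4a12a.

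Liver 4 was apart in the pericentral list, with 7125 CPM against 10816 to 11422 CPM, and in its leading gene Cyp2e1, with 4329 CPM against 6978 to 7025 CPM. The class of cytoskeleton, matrix and adhesion genes was low there, at 0.629% against 0.705% to 0.713%. Cyp2a4 stood at 269 CPM, Tff3 at 81.9 CPM, mt-Co3 at 8355 CPM against 7566 to 7666 CPM, and Creb3l3, a hepatic transcription factor, at 325 CPM against 279 to 284 CPM.

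Liver 3 was apart in Gvin1 (122 CPM) and in Rgs5, a pericyte gene (27.0 CPM against 21.8 to 22.3). It had 19057 genes above 0, against 18835 to 18863.

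Transcripts that the gene annotation did not hold took a mean of 0.875% of the counts and entered no gene value. Of these 2686 transcripts 1681 had counts, and the 10 largest held 46.2% of the unmatched counts. The largest, ENSMUST00000201224, was at 157, 1588, 2109 and 461 CPM in livers 1 to 4, and ENSMUST00000202668 at 145, 435, 691 and 34.4 CPM. Both were higher in livers 2 and 3, as the Mup genes were, and no gene name was looked for. The CPM of these transcripts are of all estimated counts. Those of ENSMUST00000202668 were close to Mup15, which was at 147, 439, 699 and 34.7 CPM of the gene-assigned counts. Whether its sequence is that of Mup15 was not tested.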

How the results depend on the processing

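The number of detected genes was 13262 at a minimum of 0.5 CPM, 9126 at 5 CPM, 7383 at 10 CPM and 13168 at 10 counts in every library, and 21523 genes had a mean above 0. Scaled per length, the 10 most abundant genes held 22.01%, the secreted classes 37.0% and the hepatocyte list 91322 TPM, and without the mitochondrial genome in the total the secreted classes held 35.9%. The median CV was 8.89% at a minimum of 10 CPM, 22.5% with no minimum, and 17.5% as the common biological coefficient of variation of edgeR. The 2-fold count was 259 at 10 CPM, and 1070 without the hemoglobin, Kupffer cell, proliferation and immediate early genes, an alternative chosen after seeing the data, as were those without Mup7 and with the pseudogenes counted as mitochondrial. The share of the dominant transcript was 71.1% per length, 82.7% at 10 CPM and 87.2% over protein-coding transcripts, and 663 genes had another dominant transcript at 10 CPM. Leaving out 1 liver gave median CVs of 10.01% to 11.1%, 2-fold counts of 725 to 848, shares of the first 10 genes of 18.7% to 19.4% and of the secreted classes of 33.1% to 33.96%. Under TMM the means of all 201 named genes moved by less than 1 SD. Of the class values under all settings 201 moved by less and 59 by more than 1 SD, and of the list sums 42 and 18. Scaled per length 36 class values moved by more and 1 by less, and without the mitochondrial genome 22 and 14. All 18 list sums that moved did so per length. Leaving out 1 liver cannot shift a mean over the livers by 1 SD, so those settings do not test the class values. No paired analysis was possible because 1 group was described and no test was run. Depth limits genes near 1 CPM, where counting error is over 10%, and near copies limit the Mup, globin, α1-antitrypsin and mitochondrial genes. Sex, time of necropsy, lobe and RNA integrity are not given in the sources used here.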
